A study of Gallus gallus with 16 samples.

Results

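Among the transcripts measured in HD11 cells, a chicken macrophage-like line, 52 met a rule for a change with lipopolysaccharide (LPS) and procyanidin B1 (PB1) given together and not with either agent alone. The members were chosen by their measured group means. Each deposited value was divided by the sum of its library and multiplied by 1000000 (parts of the library's signal, ppm below), and the log2 values of the 4 libraries of a group were averaged. A coding transcript (NM or XM accession) was a member when at least 1 group mean reached 10 ppm, the LPS and the PB1 group each lay within 0.4 of the control group (CTR) on the log2 scale, and the LPS + PB1 group lay at least 0.8 above CTR (raised members) or at least 0.8 below it (lowered members). Of 5903 coding transcripts in a table of 6492, 4008 reached the level, 7.39% and 5.76% of these lay at least 0.8 above or below CTR with both agents, and 2304 lay within the limits for both single agents. The raised members numbered 29 (1.26% of the 2304) and the lowered members 23 (0.998%). These values chose the members, so all differences from CTR are given below as a description and none was tested as support.

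The series holds 16 RNA-seq libraries of HD11 cells, 4 each of CTR (PBS), LPS (100 ng/mL), PB1 (100 µg/mL) and LPS + PB1. According to the methods, PB1 was given for 12 h and LPS followed for 12 h, whereas the labels give 6 h of LPS. The labels also place 100 µM SeMC in the culture medium of every group, controls included. The methods give 3 replicates per group and the labels 4, and no source states whether the libraries came from separate cultures, so the spread between them may be technical. HD11 is a single virus-transformed line.

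LPS, a glycolipid of the Gram-negative outer membrane, is sensed by Toll-like receptor 4, which signals through NF-kB, MAP kinases and interferon regulatory factors. PB1 is a dimer of flavan-3-ols from plants and is studied as an antioxidant. Genes that respond to a pair of stimuli together and little to each alone are of interest because signals that meet at a shared regulator can produce that pattern, which an additive response does not.

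The reads recovered from the deposited values (described below) lay between 4173989 and 4414942 per library. By this inference depth differed little between libraries. The paper gives a lower average number of reads per sample. In each group the libraries fell into 2 pairs, replicates 1 and 2 and replicates 3 and 4. The SD of the log2 difference between libraries was taken over transcripts past a filter of 10 reads and after TMM scaling, both described below. It was 0.294 to 0.313 within the pairs of LPS + PB1 and 0.597 to 0.640 between them. In LPS it was 0.267 to 0.287 against 0.504 to 0.536, in CTR 0.261 to 0.320 against 0.410 to 0.442, and in PB1 0.286 to 0.323 against 0.331 to 0.378. No label says what the pairs are, and values are therefore also given for each pair. The label macrophage-like could be checked on few of the 21 markers listed, because XM transcripts carry no symbol in the annotation used: CYBB, a subunit of the phagocyte NADPH oxidase, had 0 reads in every library, and MRC1, the mannose receptor, had at most 3 reads in any. Of 23 fibroblast or mesenchymal markers, 8 were matched, and together they held 73404 to 111186 ppm in a library. Epithelial (2 of 6 matched) and muscle markers (4 of 7 matched) did not reach a mean of 10 ppm in any group. Of the 3 matched macrophage markers, CYBB and MRC1 thus went against the label. The third, which is not reported here, reached a mean of 10 ppm in at least 1 group. These markers do not settle the label, and the cells are called by their line name.

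The raised members lay 0.81 to 3.07 above CTR in LPS + PB1 (median 0.98), and the lowered members 0.81 to 1.92 below it (median −1.21), while the median over all 4008 transcripts was 0.04. With LPS alone the median difference of the raised members from CTR was 0.20, and with PB1 alone 0.07, where all 4008 transcripts had 0.05 and 0.08. Among the lowered members the medians were −0.15 with LPS and 0.02 with PB1. The joint difference less the sum of the LPS and PB1 differences ran from 0.28 (EIF5A2) to 2.97 in the raised members. In the lowered members it ran from −0.61 to −2.09. This is the part beyond an additive response on the log2 scale. It is built from the differences that the rule used and is given without its error, so nothing is read from its range.

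**Figure D1:**
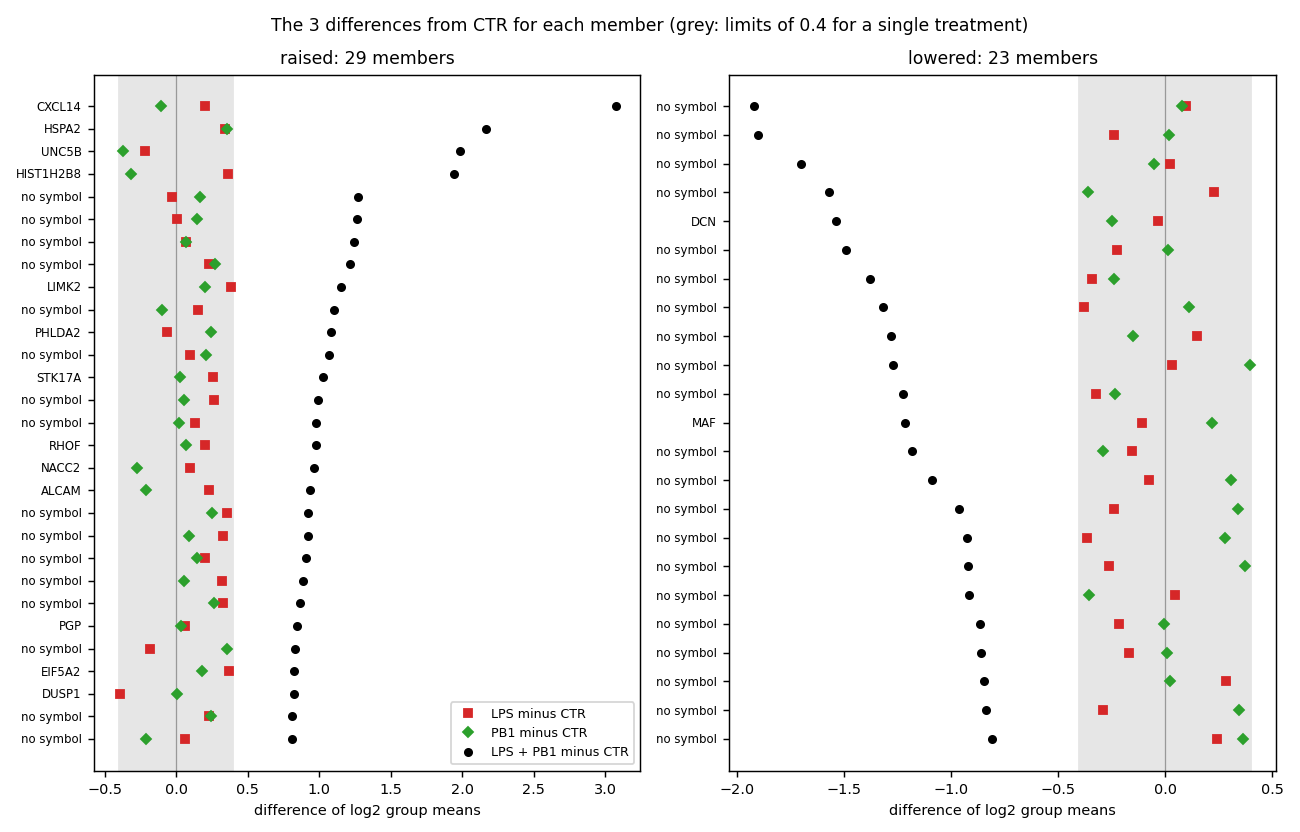
Differences of log2 group means from CTR (x axis) for each of the 29 raised (left) and 23 lowered (right) members, one member per line, ordered by size; squares are LPS minus CTR, diamonds PB1 minus CTR and circles LPS + PB1 minus CTR, each from means of 4 libraries, and grey marks the limits of 0.4. The circles reach 3.07 for CXCL14 and −1.92 for a transcript without a symbol, while squares and diamonds stay in the grey area, as the rule sets.

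Of the members, 13 raised and 2 lowered ones carried a gene symbol. Genes of the cell surface and of secreted proteins included the raised member with the largest difference. CXCL14 (chromosome 13, 14936550 to 14943837, GRCg7b), a chemokine that attracts monocytes and dendritic cells in mammals, had 2.53, 2.60, 0.877 and 1.62 ppm in the CTR libraries 1 to 4, 1.12, 0.919, 5.34 and 2.99 with LPS, 2.31, 1.85, 1.17 and 1.40 with PB1, and 7.66, 9.02, 27.6 and 24.6 with LPS + PB1. Each LPS + PB1 library lay above the other 12, and the geometric mean was 8.42-fold that of CTR. The counts behind it were small, 3 to 10 reads in CTR and 32 to 117 in LPS + PB1. UNC5B (chromosome 6, 12474900 to 12505789), a netrin receptor of vascular and axonal guidance, had 70.6, 62.0, 80.1 and 94.9 ppm in CTR, 59.6, 55.8, 72.9 and 74.6 with LPS, 58.2, 53.8, 59.3 and 63.4 with PB1, and 209, 197, 483 and 413 with LPS + PB1. It was 3.96-fold CTR in the joint group with no overlap, and it lay below CTR with each single agent, by 0.22 and 0.37 on the log2 scale. ALCAM (chromosome 1, 86750515 to 86867487), an adhesion molecule of the immunoglobulin superfamily, went from 308 ± 51.3 ppm in CTR (SD, n = 4) to 595 ± 139 in LPS + PB1, with 361 ± 68.2 in LPS and 263 ± 19.8 in PB1.

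Signalling and chaperone genes made up the next group. HSPA2 (chromosome 5, 52384623 to 52386942), a member of the Hsp70 family of protein-folding chaperones, had 55.8, 53.4, 45.2 and 50.3 ppm in CTR, 48.7, 61.2, 81.1 and 71.6 with LPS, 59.0, 61.5, 66.7 and 74.3 with PB1, and 238, 227, 238 and 216 with LPS + PB1. It was the named raised member with the smallest spread between the LPS + PB1 libraries (log2 SD 0.07), at 4.50-fold CTR, and the highest of the other 12 libraries was LPS library 3. LIMK2 (chromosome 15, 9058257 to 9088989), a kinase that phosphorylates cofilin and so stabilises actin filaments, had 39.4, 40.4, 33.4 and 39.1 in CTR, 41.4, 40.01, 59.1 and 61.6 with LPS, 40.9, 41.7, 46.7 and 45.7 with PB1, and 76.9, 75.3, 98.6 and 89.2 with LPS + PB1. The joint libraries lay above the other 12, and LPS libraries 3 and 4 were the next highest. RHOF (chromosome 15, 5633019 to 5642018), a small GTPase of filopodia, was at 13.9 ± 3.50 ppm in the joint group and at 6.93 ± 0.760 in CTR, and the joint library 1 lay just below LPS library 3. STK17A (chromosome 2, 51503242 to 51528011), a kinase of the death-associated protein kinase family, went from 87.4 ± 20.8 to 178 ± 45.3, with 103 ± 19.1 in LPS and 87.7 ± 12.3 in PB1.

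DUSP1 was the only raised member whose joint libraries overlapped CTR and whose joint difference changed direction between the pairs. DUSP1 (chromosome 13, 8664541 to 8667132), a phosphatase that inactivates MAP kinases and is an early feedback gene of inflammatory signalling, had 352, 320, 120 and 133 ppm in CTR, 91.0, 111, 249 and 242 with LPS, 226, 217, 202 and 186 with PB1, and 288, 291, 474 and 449 with LPS + PB1. CTR libraries 1 and 2 lay above LPS + PB1 libraries 1 and 2, so the groups overlapped, and the LPS + PB1 difference from CTR came to −0.22 for replicates 1 and 2 but to 1.87 for replicates 3 and 4. LPS alone gave −1.74 and 0.95 in these pairs, and the mean of −0.39 that met the limit joins these opposite values. Other raised members, CXCL14 and PHLDA2 among them, also had opposite values with LPS (below).

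Nuclear genes and others with a symbol followed. HIST1H2B8 (chromosome 1, 48128472 to 48129293), a histone H2B gene, had 8.04, 10.2, 13.7 and 11.7 ppm in CTR, 13.02, 6.07, 22.0 and 20.4 with LPS, 7.16, 9.06, 10.5 and 8.01 with PB1, and 26.3, 26.0, 57.0 and 74.2 with LPS + PB1. All 4 joint libraries lay above the other 12, at 3.85-fold CTR, but H2B genes are near-identical copies whose reads can be shared, so the value is uncertain. NACC2 (chromosome 17, 8696654 to 8750690), a BTB-domain protein that represses transcription in human cells, went from 171 ± 13.2 to 333 ± 29.5 ppm, with 182 ± 11.5 in LPS and 141 ± 6.65 in PB1. PHLDA2 (chromosome 5, 12755181 to 12756654), a pleckstrin homology-like protein that is imprinted and limits placental growth in mammals, had 24.2, 24.4, 13.7 and 22.4 in CTR, 11.6, 14.1, 29.7 and 31.3 with LPS, 20.6, 20.9, 23.9 and 34.7 with PB1, and 32.1, 30.7, 63.3 and 58.3 with LPS + PB1. Its joint libraries stood above CTR but not above PB1 library 4 or LPS library 4. PGP (chromosome 14, 6498716 to 6502040), a phosphatase of phosphoglycolate, was at 21.3 ± 1.99 in CTR and 39.8 ± 13.03 in LPS + PB1. EIF5A2 (chromosome 9, 19418562 to 19425768), a paralogue of the hypusine-bearing translation factor eIF5A, was at 27.3 ± 6.66 and 47.3 ± 3.97, with 34.9 ± 7.24 in LPS, the smallest step from LPS among the named raised members (0.46).

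**Figure D2:**
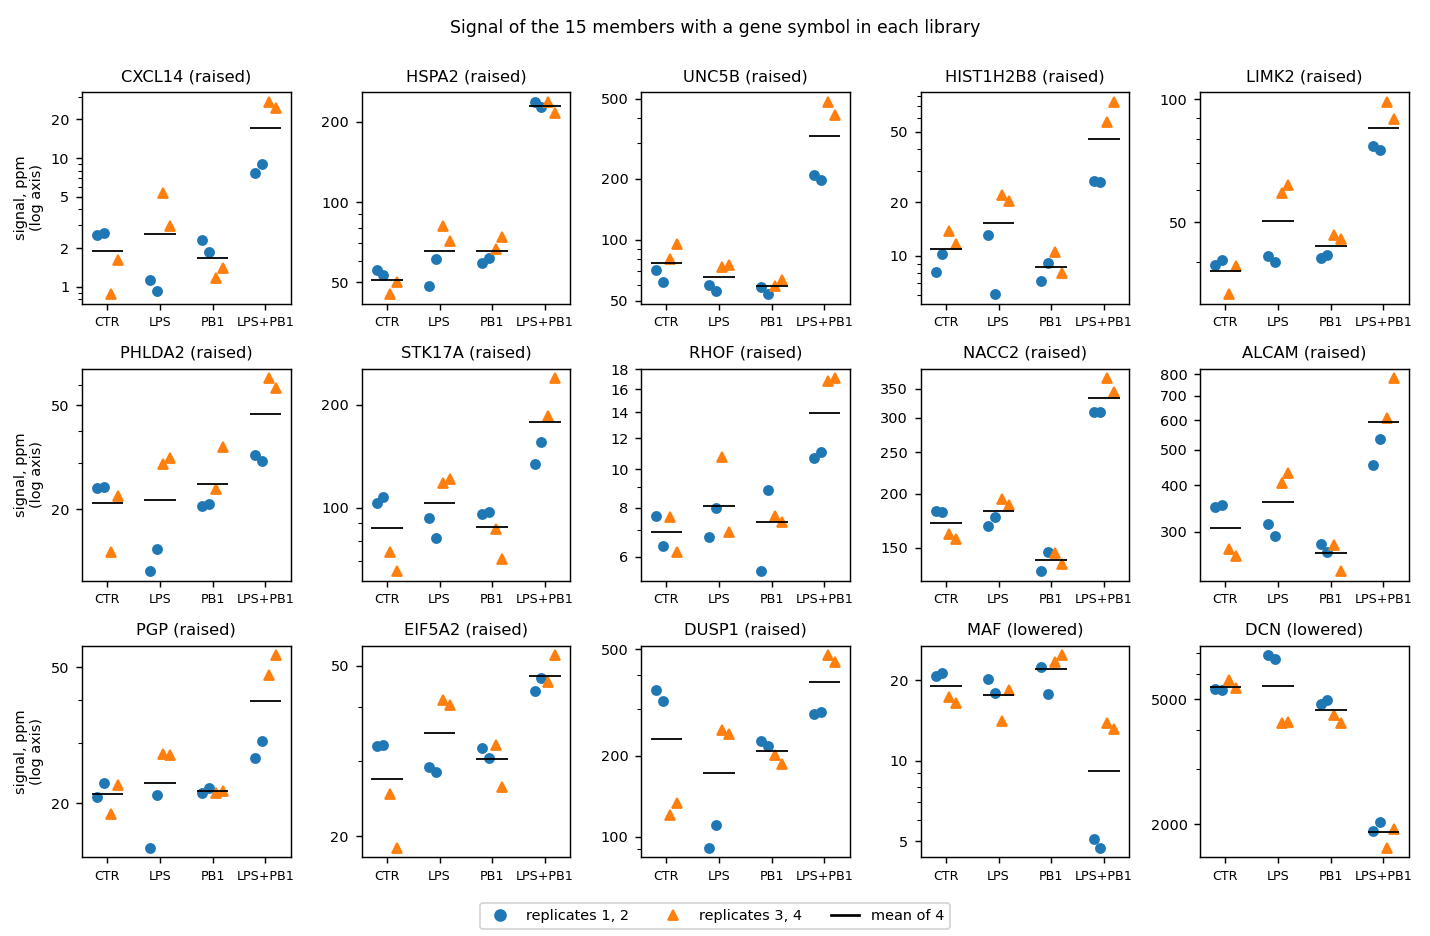
Signal in ppm (log y axis) of the 15 members with a gene symbol in each of the 16 libraries by group; circles are replicates 1 and 2, triangles replicates 3 and 4, and lines the arithmetic mean of 4 libraries. HSPA2 and DCN have joint libraries close together, whereas CXCL14, UNC5B and HIST1H2B8 are higher in replicates 3 and 4, and DUSP1 overlaps with CTR.

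Both named lowered members had all 4 joint libraries below the other 12. DCN (decorin, chromosome 1, 44073171 to 44112514), a small leucine-rich proteoglycan that binds collagen fibrils, had 5385, 5330, 5742 and 5436 ppm in CTR, 6887, 6681, 4184 and 4233 with LPS, 4829, 4981, 4462 and 4212 with PB1, and 1909, 2029, 1688 and 1929 with LPS + PB1. It had the highest signal of the members, which is not scaled for transcript length, and CTR was 2.90-fold higher than the joint group, by similar amounts in both pairs (−1.44 and −1.63). MAF (chromosome 11, 14174786 to 14334814), a bZIP transcription factor of lymphoid and myeloid cells and of the lens, had 20.8, 21.3, 17.3 and 16.4 in CTR, 20.2, 17.9, 14.1 and 18.3 with LPS, 22.4, 17.7, 23.4 and 24.8 with PB1, and 5.11, 4.73, 13.8 and 13.1 with LPS + PB1. The lowest of the other libraries was LPS library 3, just above the joint libraries 3 and 4, and the difference from CTR was −2.10 in replicates 1 and 2 and −0.33 in replicates 3 and 4.

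DCN is also one of the mesenchymal markers above, whose summed level was 97073 to 109173 ppm in CTR, 90233 to 111186 in LPS, 73404 to 77016 in PB1 and 74832 to 90044 in LPS + PB1. The lowest range was thus that of PB1 alone, where DCN lay 0.25 below CTR, and it overlapped the range of LPS + PB1. The sum mostly follows its most abundant markers, which moved in opposite directions with PB1. COL1A2 had a mean of 42120 ppm in CTR and 16689 with PB1, and VIM 22643 and 30449. Of the 8 markers, LUM, another leucine-rich proteoglycan, lay 1.47 below CTR with both agents but already 0.81 below with LPS, and COL6A2, a chain of collagen VI, lay 0.75 below with both, 0.30 above with LPS and 0.26 above with PB1. The others ranged from −0.34 (COL1A2) to 0.54 (TWIST1). In bulk RNA, fewer cells of a kind and less RNA per cell cannot be told apart, and the part of a shift in such cells in the DCN value was not tested.

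The other 37 members, 16 raised and 21 lowered, had no symbol. The raised ones lay 0.81 to 1.27 above CTR, all below the 4 leading named genes, and had means of 18.3 to 793 ppm in the joint group. XM_040681096.2 was the first of them, at 6.68, 4.99, 8.05 and 7.37 ppm in CTR and 9.31, 9.89, 26.2 and 27.9 in LPS + PB1, with 3.46, 4.70, 11.7 and 9.52 in LPS and 6.92, 7.41, 7.14 and 8.49 in PB1. LPS overlapped the joint group here, while PB1 did not. XM_046927091.1 had 48.6, 50.8, 25.4 and 21.0 in CTR, 22.8, 23.1, 48.5 and 52.3 in LPS, 34.6, 39.4, 35.6 and 40.4 in PB1, and 66.4, 64.9, 101 and 101 in LPS + PB1, so that LPS lay below CTR in replicates 1 and 2 and above it in replicates 3 and 4. The lowered members farthest from CTR had no symbol. XM_040679392.2 had 76.1, 70.3, 66.8 and 73.0 in CTR, 74.3, 80.1, 81.6 and 70.0 in LPS, 81.8, 78.1, 73.9 and 68.6 in PB1, and 19.6, 19.4, 16.1 and 20.9 in LPS + PB1. XM_040676620.2 had 26.3, 31.8, 33.9 and 35.5 in CTR, 24.4, 26.8, 31.4 and 25.3 in LPS, 32.6, 34.2, 28.7 and 32.9 in PB1, and 7.45, 8.58, 8.86 and 9.17 in LPS + PB1. These 2 transcripts were 3.78-fold and 3.73-fold lower in the joint group than in CTR, met the whole rule in each pair of replicates and had single-agent libraries that overlapped CTR. One pair of lowered members had consecutive accession numbers and may be variants of 1 gene.

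At the limits of the rule, EIF5A2 and DUSP1 lay just inside (both 0.83), and SLC22A4 (0.80 when rounded, below the limit unrounded) and DCXR (0.79) just outside. Among the lowered transcripts with a symbol, MAF was the nearest inside and COL6A2 (−0.75) and MORN2 (−0.72) were the nearest outside. PLPP3, which degrades bioactive lipid phosphates, lay 1.46 below CTR with both agents and failed only on LPS alone (0.42). CAP2, an actin-binding protein, lay 1.05 above and failed on the same limit (0.47).

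All 4 joint libraries lay above the other 12 in 19 of 29 raised members and below the other 12 in 19 of 23 lowered ones. Over the 4008 transcripts these shares were 6.26% and 5.59%, and since the rule chose by the same means nothing is read from the contrast. The named raised members with overlap were PHLDA2, RHOF, PGP and DUSP1. Against CTR alone, 28 of 29 and 21 of 23 were clear (18.8% and 13.8% of all), DUSP1 and 2 nameless lowered members being the exceptions. In limma fits over all transcripts, with calls made where the adjusted p was 0.05 or less and the fold 1.5 or more, LPS + PB1 differed from CTR in 28 raised and all 23 lowered members (background 8.59% higher and 9.34% lower), from LPS in 22 and 19 (7.63% and 10.1%), and from PB1 in 26 and 22 (13.9% and 15.6%). With the replicate number as a block the calls against LPS were 24 and 21. The calls over all transcripts also rose with the block (totals below), and their shares by direction were not computed. Nothing is therefore read from this rise. The LPS by PB1 interaction, at the same adjusted p with no fold limit, was called in 21 and 20 members, where 22.3% and 22.2% of all tested transcripts were called in those directions. These counts also repeat what the rule selected. The main fits took the 4 libraries of a group as independent, although they fell into 2 pairs. The calls, among the members and over all transcripts, may therefore be too many.

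Single agents gave 0 calls among the members at that fold (16.9% of all transcripts with LPS and 20.8% with PB1), which the limits of 0.4 fix. Without a fold limit, limma gave an adjusted p of at most 0.05 with LPS in 0 raised and 5 lowered members (32.7% of all). With PB1 it did so in 4 raised and 8 lowered members (43.1% of all transcripts). The raised ones were HSPA2, above CTR (log2 difference after TMM 0.27), and UNC5B (−0.45), NACC2 (−0.36) and ALCAM (−0.29), below it. DCN was the lowered one with a symbol (−0.32). At an unadjusted p under 0.05 the numbers were 3 and 9 with LPS (42.8% of all transcripts) and 5 and 10 with PB1 (50.2%). CXCL14 was too low for these fits, so 28 raised members were tested. Since the rule set the limits of 0.4 on the same differences, nothing is read from these shares.

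The 2 pairs of replicates gave unlike medians for the raised members. In replicates 1 and 2, 9 of 29 raised members reached 0.8 (5.31% of all transcripts), and in replicates 3 and 4, 28 of 29 did (11.9%). The median difference was 0.65 and 1.37, where all transcripts had −0.06 and 0.14, and the difference was larger in replicates 3 and 4 for 26 members. Of the lowered members 18 and 19 of 23 reached −0.8 (6.54% and 6.81% of all), with medians of −1.28 and −1.24, but single members such as MAF differed strongly between the pairs. The limit was met in both pairs by 8 of 29 raised and 14 of 23 lowered members, and the direction was the same in both pairs in 28 and 23. The shares of all transcripts that did so in both pairs were not computed, so nothing is read from these counts.

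The flat response to LPS alone was less even. LPS minus CTR was below 0 in replicates 1 and 2 and above 0 in replicates 3 and 4 for 22 of 29 raised members, and the opposite held for 0. The share of all transcripts with this change of sign was not computed on any scaling, but their median also moved, from −0.09 to 0.17. The medians of the raised members were −0.16 and 0.51, and 19 of 29 exceeded 0.4 in replicates 3 and 4, against 29.5% of all transcripts. For CXCL14 the pair values were −1.34 and 1.75, for PHLDA2 −0.93 and 0.80, and for LIMK2 0.03 and 0.74. UNC5B was even, at −0.20 and −0.24. With TMM library sizes (trimmed mean of M values, a scaling that sets aside the transcripts with extreme ratios), which moved the median LPS minus CTR of all transcripts in replicates 3 and 4 from 0.17 to −0.05, 17 of 29 had the same change of sign and 14 exceeded 0.4 (17.1% of all). Where the sign changed, these values offset each other, and the small difference with LPS alone is a mean over unlike pairs. The rule kept only means near CTR, which favours such offsets, so nothing more is read from their number. Both single agents were within 0.4 in 8 raised members in replicates 3 and 4 (46.1% of all) and in 21 in replicates 1 and 2 (56% of all). Of the lowered members, 10 were within these limits in replicates 3 and 4 and 14 in replicates 1 and 2. LPS alone was outside 0.4 in 7 lowered members in each pair. That share over all transcripts was not computed, so nothing is read from this count. For DCN, LPS minus CTR was 0.34 in replicates 1 and 2 and −0.41 in replicates 3 and 4, so DCN missed the limit in replicates 3 and 4. The whole rule was met in both pairs by 1 raised member, which has no symbol, and by 6 lowered members. No other coding transcript met it in both pairs.

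**Figure D3:**
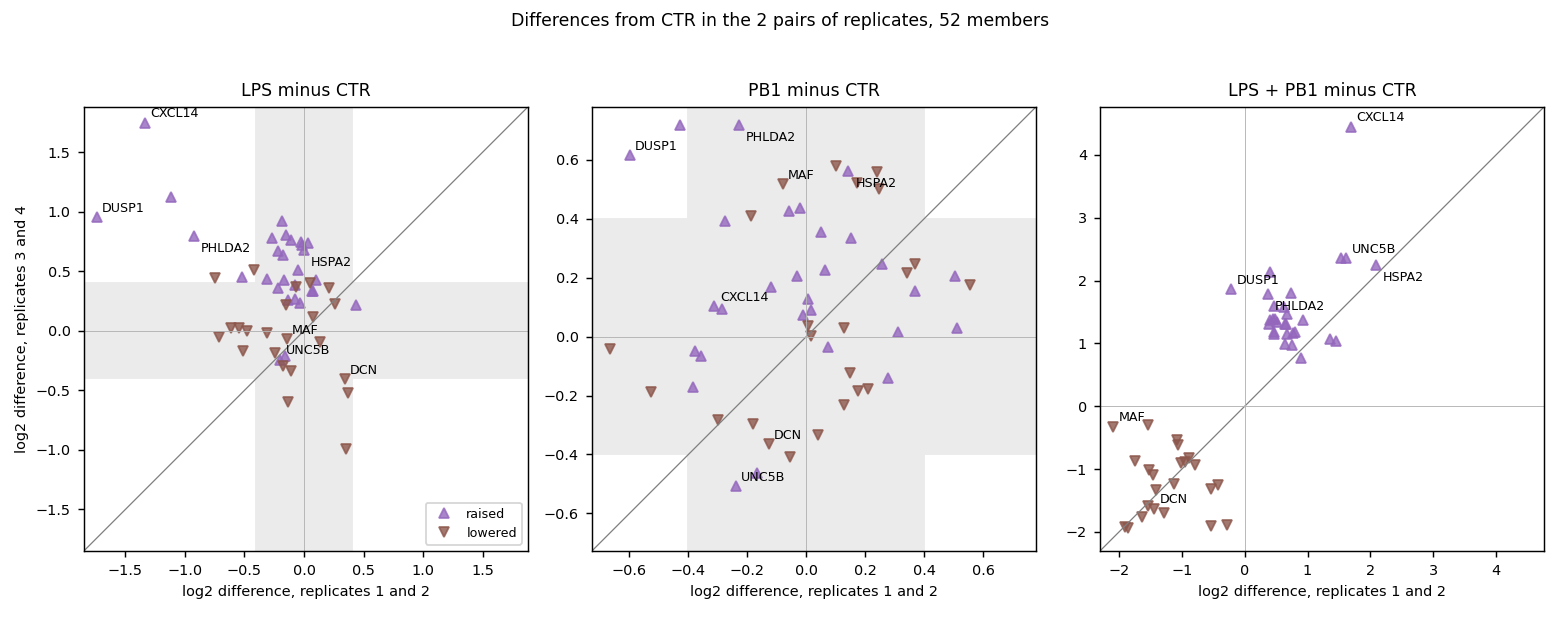
Log2 difference from CTR in replicates 1 and 2 (x axis) against replicates 3 and 4 (y axis) for the 52 members, for LPS, PB1 and LPS + PB1; triangles pointing up are raised and pointing down lowered members, the diagonal marks equal values and grey the limits of 0.4 in either pair. With LPS most raised members lie left of 0 and above 0, and with both agents 26 of 29 lie above the diagonal.

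The same split ran through the LPS and the joint libraries. Replicates 3 and 4 were both above replicates 1 and 2 in 25 of 29 raised members in LPS (53.3% of all transcripts) and in 24 in LPS + PB1 (44%), but in 8 in CTR (20.9%) and 12 in PB1 (24.8%). With TMM the counts were 24 in LPS (30.4%) and 23 in LPS + PB1 (29.8%). The median gap between the pairs was 0.53 in LPS and 0.59 in LPS + PB1, where all transcripts had 0.15 and 0.11. Among the lowered members 9 of 23 in LPS and 8 in LPS + PB1 had this order. What sets the pairs apart was not tested.

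The rule was also applied to 1 pair only, and its transcripts were looked up in the other pair, which had no part in their choice. Of all 5903 coding transcripts, 17 raised and 37 lowered ones met the whole rule in replicates 1 and 2. In replicates 3 and 4, 28 raised and 22 lowered ones met it. Of 17 raised in replicates 1 and 2, 1 met the whole rule in replicates 3 and 4, 8 the limit of 0.8 (12.2% of the transcripts did), and 15 had the same direction (63.9% did). Of 28 raised in replicates 3 and 4, 1 met the whole rule in replicates 1 and 2, 2 reached 0.8 there (5.27% of the transcripts did) and 26 had the same direction (42.8% did). Of 37 lowered in replicates 1 and 2, 6 met the whole rule in replicates 3 and 4, 14 the limit of −0.8 (6.72% of the transcripts did), and 28 had the same direction (36.1% did). Of 22 lowered in replicates 3 and 4, 6 met the whole rule in replicates 1 and 2, 10 the limit (6.67% did), and 22 had the same direction (57.2% did).

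The members were compared with lists of genes for known programmes. Lists were matched by symbol, which no XM transcript carried, so the 37 members without a symbol could not fall in any list. Listed genes without a match may still have been measured. In the list of protein folding and stress genes, 7 of 42 were matched and HSPA2 was the 1 member. The others ranged from 0.54 (HSPB1, a small heat shock protein) to −0.998 (CHAC1, a target of the unfolded protein response, which with PB1 alone differed from CTR by −4.22). The list median was 0.16, near that of all transcripts. In the list of NF-kB and inflammatory genes, 14 of 54 were matched, 8 reached 10 ppm, and DUSP1 was the 1 member. FOS, an early response gene, lay 1.33 above CTR with both agents and 1.58 above with LPS alone, and IL6, an inflammatory cytokine, lay 0.41 above with both. In the list of the extracellular matrix DCN was the 1 member of 14 at that level. Cell cycle, cholesterol synthesis, interferon, hypoxia, NRF2 target, glycolysis and ribosome genes held 0 members of 14, 4, 4, 9, 8, 3 and 24 genes at that level. Over all 1208 NM transcripts at that level 15 were members, so 0 in lists of this size says little.

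Their genes lay on 10 chromosomes, and the nearest on 1 chromosome, RHOF and LIMK2, were 3.416 Mb apart. The median gene span was 9 kb against 10.843 kb for 1206 matched transcripts at that level. The highest group mean was under 20 ppm in 4 of 29 raised and 3 of 23 lowered members and in 8.51% of the 4008 transcripts. By the log2 means of the rule, these 4 raised members, CXCL14 and RHOF among them, reached 10 ppm in the joint group only. They thus passed the level only through the group where they are high.

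The count of members moved with the limits. TMM library sizes gave 24 raised and 32 lowered transcripts, of which 21 and 18 were members, and UNC5B, PGP, EIF5A2 and DUSP1 were no longer among them. HSPA2, CXCL14, DCN and MAF were. Over the 16 sets that left out 1 library, 12 raised members (PHLDA2, STK17A, RHOF and NACC2 with a symbol) and 8 lowered ones, DCN and MAF among them, met the rule every time. Each such set kept both pairs of replicates, so it cannot show how the pairs differ. PHLDA2 and STK17A met the whole rule in neither pair, and RHOF and NACC2 met it in replicates 3 and 4 only. Without CTR replicate 2, 16 of the 23 lowered members met it, and without LPS + PB1 replicate 4, 21 of the 29 raised ones.

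**Figure D4:**
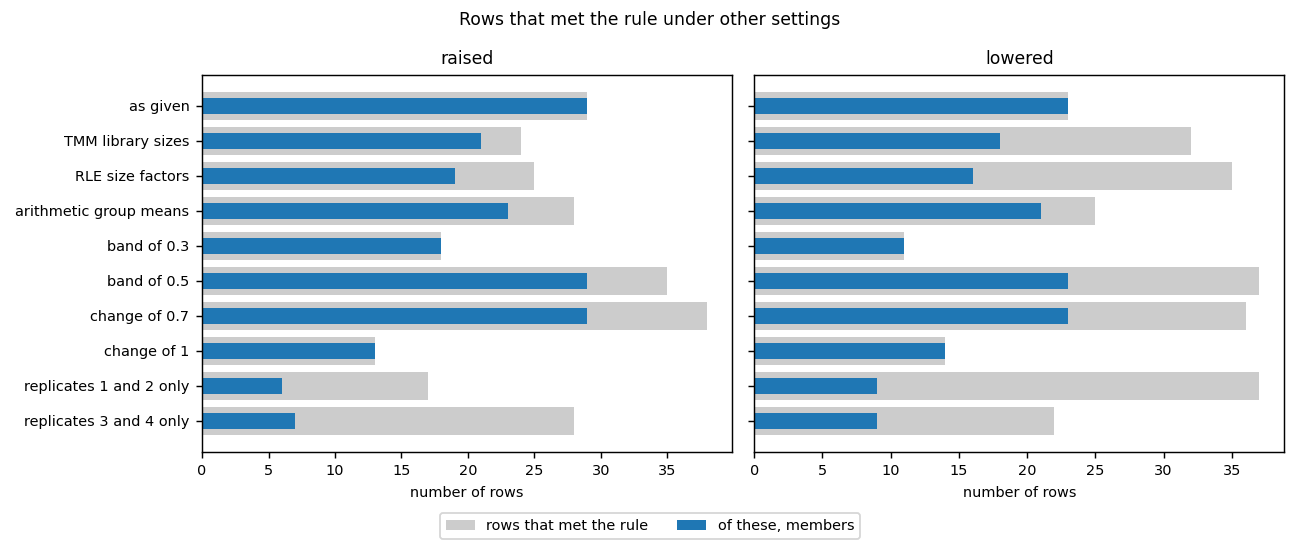
Number of transcripts (x axis, from 0) that met the rule as given and under other limits, scalings and sets of replicates; grey bars are all transcripts that met it and blue bars the members among them, raised left and lowered right. Replicates 1 and 2 alone gave 17 raised transcripts with 6 members, and replicates 3 and 4 alone gave 28 with 7.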

How the data were processed

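Total RNA of HD11 cells was sequenced as single reads from TruSeq libraries. The authors mapped reads to GRCg7b with Hisat2 (version 2.2), obtained read numbers by Htseq-count. The deposited table is a scaled signal and holds no raw counts. In each library, values lay on a step between 2.97 and 5.53, as reads plus 1 times the step, rounded down. The sources used here do not describe this scaling. Library totals of the signal were 12543666 to 23107935, and precision is limited by the 4 libraries per group.

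The rule was applied to the signal in ppm of each library with no further pseudocount. Because the values are not counts, limma (version 3.58.1, R 4.3.3, lmFit and eBayes with a trend) was used, as planned for a scaled signal. It was fitted on log2 signal in ppm after TMM, on transcripts past a filter of 10 reads, with Benjamini-Hochberg adjustment. The script was tested on simulated data. Symbols came from the RefSeq annotation by accession. Members with a symbol are all named. Among them, every library is printed for the 6 largest differences from CTR per direction (both, where only 2 were lowered) and for those on a gene list. Of members without a symbol, the 2 farthest from CTR in each direction are given. Members and lists were chosen with earlier results of these data known, and 1 marker is not reported here.

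Replicate numbers came from the labels. Deviations of same-numbered libraries correlated at 0.459 to 0.559 between LPS and LPS + PB1 in all 4 pairs, so a fit with the replicate number as a block is given for that comparison. Between the other groups they ran from −0.193 to 0.274. Alternatives were other scalings, limits, levels, means, replicate pairs and each library left out.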

Additional observations from a re-analysis of the deposited data

How the results depend on the processing

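The number of raised members, 29, became 66 with no minimum level, 18 with limits of 0.3 for single agents, 13 with a change of 1, 17 in replicates 1 and 2 alone and 16 there with TMM (added after seeing the data). The number of lowered members, 23, became 35 with RLE size factors (median ratios), 11 with limits of 0.3, 37 with limits of 0.5, 36 with a change of 0.7, 14 with a change of 1, 37 in replicates 1 and 2 alone and 35 with TMM in replicates 3 and 4 (added after seeing the data). Leaving out 1 library gave 22 to 38 raised and 21 to 29 lowered. The limma calls without a fold limit were 1387 against CTR, 1455 against LPS and 2239 against PB1 (806, 805 and 1332 with it). With the fold limit and 1 library left out, the calls were 722 to 895, 739 to 805 and 1267 to 1396. For the interaction, which had no fold limit, they were 1879 to 2109 (2069 with all libraries). With the replicate block the 4 counts, in the same order, were 786, 937, 1319 and 2118. Leaving out 1 library or adding the block moved no count by over 1.5 times, whereas dropping the fold limit moved all those it applied to by more. Of 180 alternatives for the named members 23 moved by 1 SD or more, all within 1 pair of replicates, and DUSP1 turned to −0.22 in replicates 1 and 2. The causes were not tested. No edgeR or DESeq2 fit was run because the values are not counts, and no promoter search was run. Low members such as CXCL14, at 3 to 10 reads in CTR, are limited by counting error.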

Other observations

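Of 589 non-coding transcripts (NR or XR accessions), which were no part of the set, 2 met the limits of the raised members and 1 those of the lowered members.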
